A study of Mus musculus with 16 samples.

Results

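Semaphorins are secreted or membrane-bound guidance proteins that steer cells and axons, often by repulsion. Class 3 semaphorins are secreted and generally bind a neuropilin, Nrp1 or Nrp2, which holds them to a type A plexin, and the plexin passes the signal on to small GTPases and the cytoskeleton. Sema3e is an exception, since it can bind plexin D1 directly, and the class 6 semaphorins are transmembrane proteins that bind type A plexins without a neuropilin. In the embryo these proteins pattern vessels, nerves and the outflow tract of the heart, and Sema3c is known for its part in the last of these.

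In all, 10 genes of this signalling family were followed, namely the ligands Sema3a, Sema3c, Sema3e, Sema3f, Sema6a and Sema6d, the coreceptors Nrp1 and Nrp2, and the receptors Plxna1 and Plxna2. They were taken from the array by gene symbol, and 33 probe sets named 1 of them and no other gene, among 45037 probe sets and 18193 named genes on the array. The genes were brought together around Sema3c because of its level under activated Notch1, so their response to Notch1 activation is described below without a test.

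The cells were mouse EB5 embryonic stem cells (ESC) and mesodermal cells grown from them. EB5 NERT cells carry a vector with a CAG promoter and the intracellular domain of mouse Notch1 fused to a hormone-binding domain, so that the protein stays inactive until 4-hydroxytamoxifen (OHT) is added. EB5 control cells carry the same vector without Notch1. OHT was given at 1 µM for 4 h, and cycloheximide (CHX), which blocks protein synthesis, at 50 µg/ml for 4 h where it was used. Mesodermal cells came from 4 days of differentiation on collagen IV, and the ESC were held for 4 h in serum-free ectodermal medium (ESCe) or in mesodermal medium with serum (ESCm). The 16 arrays fell into 12 groups. NERT mesodermal cells without OHT, with OHT, with CHX, and with CHX and OHT had 2 arrays each, and NERT ESCe, NERT ESCm, control ESCm and control mesodermal cells had 1 array without and 1 with OHT. No control array had CHX, and how many clones stood behind either line was not given in the sources used here.

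The values were expression intensities on a linear scale with array medians from 42.0 to 46.9. An intensity depends on its probes, so levels were compared between samples and never between genes. Where a gene had several probe sets, the one with the highest mean over the 16 arrays stood for it unless another is named, and ± gives the SD of 2 arrays. In a fold, a mean under 25 was set to 25 and the fold written as at least that size. Log2 differences were taken of the intensity plus 25, which understates the change of dim genes.

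Hes5, a direct Notch target, read 13.9 to 31.6 on the 6 arrays without OHT or CHX and the 2 control arrays with OHT, 584 and 632 in NERT ESC with OHT, and 1348 and 1609 in NERT mesodermal cells with OHT. Nrarp, a feedback inhibitor that Notch induces, read 110 and 113 in NERT ESC without OHT and 1691 and 1769 with it, and in NERT mesodermal cells 534 and 707 without and 5029 and 5335 with OHT. The summed intensity of 11 early mesoderm markers was 628 to 810 in the ESC arrays, 1684 and 1704 in control mesodermal cells and 4546 to 5446 in NERT mesodermal cells without OHT. That of 10 pluripotency markers was 18751 to 20408, 14910 to 15086 and 8415 to 9206 in the same order, so both lines still held pluripotency transcripts on day 4 and the NERT cells held fewer. In these bulk cultures fewer cells of a type and less RNA per cell cannot be told apart. The 2 arrays with CHX and OHT stood farthest apart of the 4 replicate pairs, with a root mean square log2 difference of 0.392 against 0.242 to 0.334.

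The promoters of Sema3c and Plxna2 are shown because these genes had the lowest OHT values of the set. Each line gives 250 bases upstream of the RefSeq start site in mouse build GRCm38.p6, plus strand, with capitals for matches to the boxes bound by Hes and Hey repressors.
Sema3c promoter, chr5:17574566-17574815: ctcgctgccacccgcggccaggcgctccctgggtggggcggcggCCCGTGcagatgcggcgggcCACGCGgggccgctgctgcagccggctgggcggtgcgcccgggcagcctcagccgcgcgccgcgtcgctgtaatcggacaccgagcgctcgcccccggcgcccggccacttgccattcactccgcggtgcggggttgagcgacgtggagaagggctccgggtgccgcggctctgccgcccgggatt
Plxna2 promoter, chr1:194619579-194619828: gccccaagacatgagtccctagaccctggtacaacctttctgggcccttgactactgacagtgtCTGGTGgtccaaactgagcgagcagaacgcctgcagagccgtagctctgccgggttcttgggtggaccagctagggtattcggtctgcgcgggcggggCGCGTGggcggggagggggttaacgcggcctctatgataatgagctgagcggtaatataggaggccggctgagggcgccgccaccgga

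Motifs, 4 in number, were searched on both strands of the windows from 250 bases before to 50 after the start, which were given for 7 of the 10 genes in 8 windows. They were TGGGAA, the core bound by the Notch partner RBP-J, the longer GTGGGAA that contains it, CACGNG, an E box type bound by Hes proteins, and CACNAG, the N box. The Sema3c window held CACGNG at both capital stretches, 206 and 186 bases upstream counted from the first base of each match, and neither form of the RBP-J core. The Plxna2 window held CACGNG 88 bases upstream and CACNAG 186 bases upstream, and it too had no RBP-J core. CACGNG was in 27.5% of all 32851 RefSeq windows of that length, CACNAG in 42.5%, TGGGAA in 25.6% and GTGGGAA in 6.38%. Among the other members, CACGNG was found for Nrp1, Sema3e and Sema6d, CACNAG for Nrp1, Sema3a and Sema6d, and TGGGAA for Sema6d alone of the 7, in 1 of its 2 windows. The Sema3c window had 75.7% G and C and 42 CG pairs, the highest of the 8 windows, against medians of 52.7% and 7 over all windows. These are matches of letters, and binding was not measured. Sema3a, Sema3e and Sema3c lie on chromosome 5, with 3 coding genes between Sema3a and Sema3e and 15 between Sema3e and Sema3c in RefSeq's order.

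Sema3c differed with the cell type, with OHT and with CHX. Its brighter probe set read 22.9 to 38.2 on the 6 ESC arrays, 279 in control mesodermal cells without OHT and 297 with it. In NERT mesodermal cells it read 137 and 145 without OHT and 37.7 and 49.8 with OHT, so the induced arrays lay at or just above the level of the ESC arrays. With CHX it read 754 and 793 without OHT and 344 and 346 with OHT. The order from the top was therefore CHX without OHT, CHX with OHT, control mesodermal cells, uninduced NERT mesodermal cells, and then induced NERT mesodermal cells together with all ESC. Within that last class the arrays overlapped, and the first 4 classes did not overlap.

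**Figure D1:**
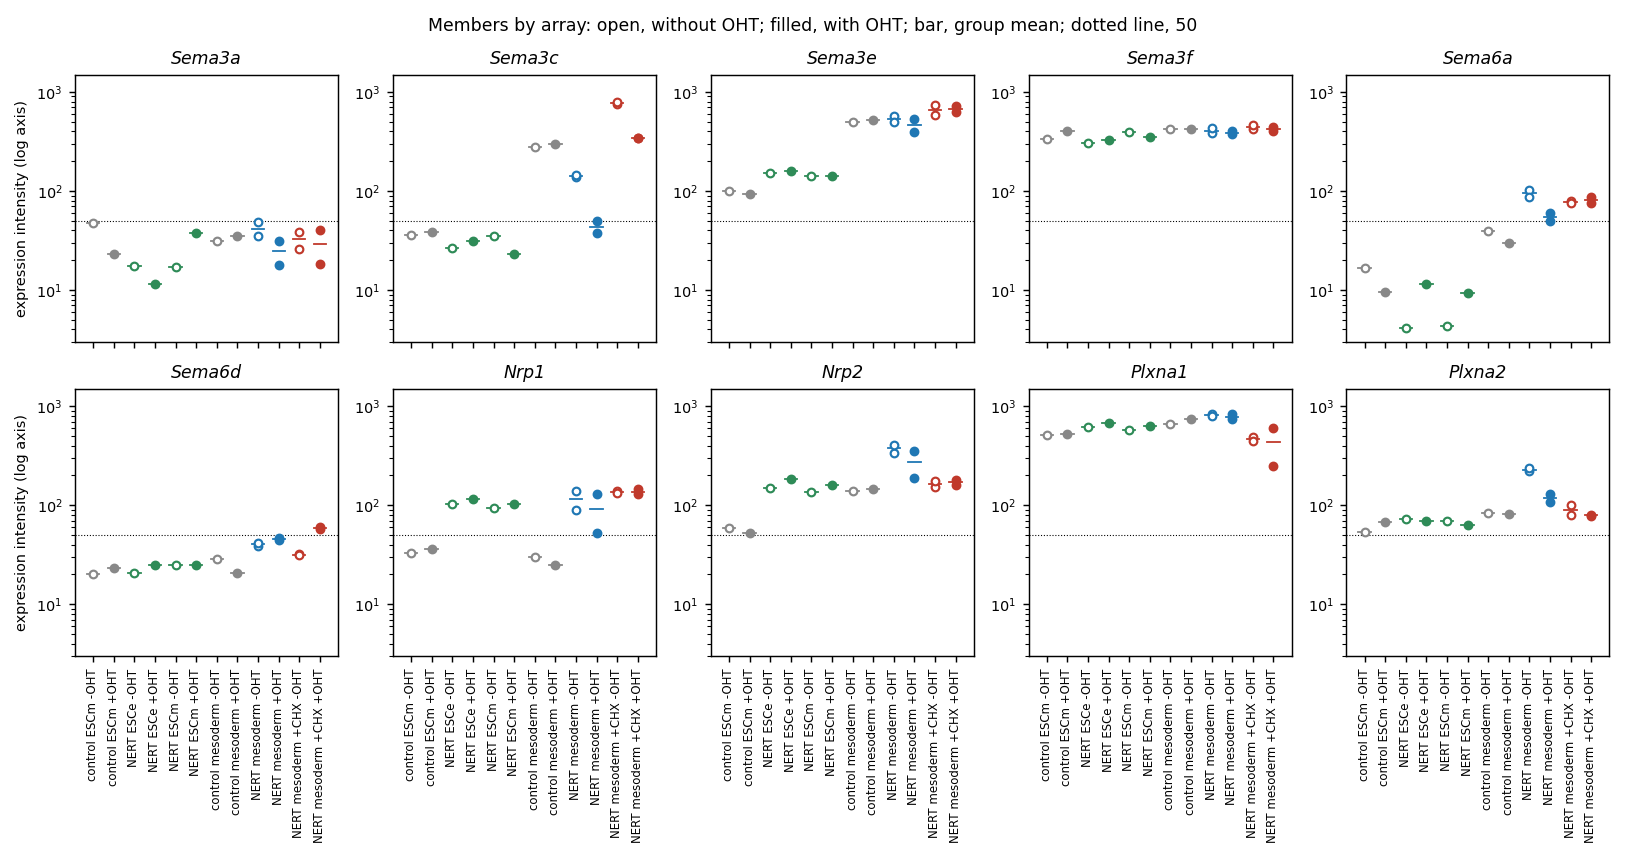
Expression intensity of the 10 genes on the 16 arrays, on a log axis, 1 panel per gene and 1 column per group. Open points are arrays without OHT, filled points arrays with OHT, bars group means and the dotted line 50. Sema3c is highest with CHX, at 754 and 793 without OHT, and Sema3f reads 307 to 461 throughout.

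With OHT, the mean of Sema3c in NERT mesodermal cells was 43.8 ± 8.57 against 141 ± 5.27 without it, 3.23-fold lower, a log2 difference of -1.28 (SE 0.17). With CHX present the means were 345 ± 1.17 and 773 ± 27.9, 2.24-fold lower with OHT, a log2 difference of -1.11 (SE 0.17). The lower level with OHT was thus measured with protein synthesis blocked as well. Among 23971 probe sets with a usable level, the value of this brighter Sema3c probe set was the 25th lowest without CHX and the 9th lowest with CHX. The genes were brought together around this response, so nothing is read from these ranks. In ESC, where Sema3c was near the bottom of the scale, the OHT difference was 0.11 in ESCe and -0.34 in ESCm. In control cells it was 0.05 in ESCm and 0.09 in mesodermal cells. The second Sema3c probe set was dimmer, at 54.5 and 41.1 without OHT against 40.4 and 44.2 with it, and these arrays overlapped. With CHX it read 92.7 and 98.4 against 64.3 and 67.9 with OHT, lower like the brighter probe set (log2 -0.40). In control cells, with 1 array a group, this second probe set was higher with OHT. It read 67.1 without and 109 with OHT in mesodermal cells (log2 0.55), and 32.7 and 44.5 in ESCm (log2 0.27).

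Plxna2, a receptor for class 6 semaphorins and, with a neuropilin, for class 3, was lower with OHT where CHX was absent and nearly level where it was present. Its brightest probe set read 222 and 236 in NERT mesodermal cells without OHT and 108 and 130 with it, a log2 difference of -0.82 (SE 0.17). With CHX it read 99.5 and 79.3 without OHT and 77.7 and 80.2 with it, a difference of -0.13, and the groups overlapped. A second probe set read 182 and 237 without OHT and 62.3 and 101 with it. The third read 112 and 109 against 73.3 and 74.4, in the same direction. The fourth was dim, at 32.5 and 37.7 against 18.4 and 17.8. With CHX the second probe set read 58.4 and 58.7 without OHT and 56.9 and 44.4 with it, and the other two had means under 50. Whether the OHT difference of Plxna2 itself differs between cells with and without CHX was not tested, because the genes were chosen on this response.

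**Figure D2:**
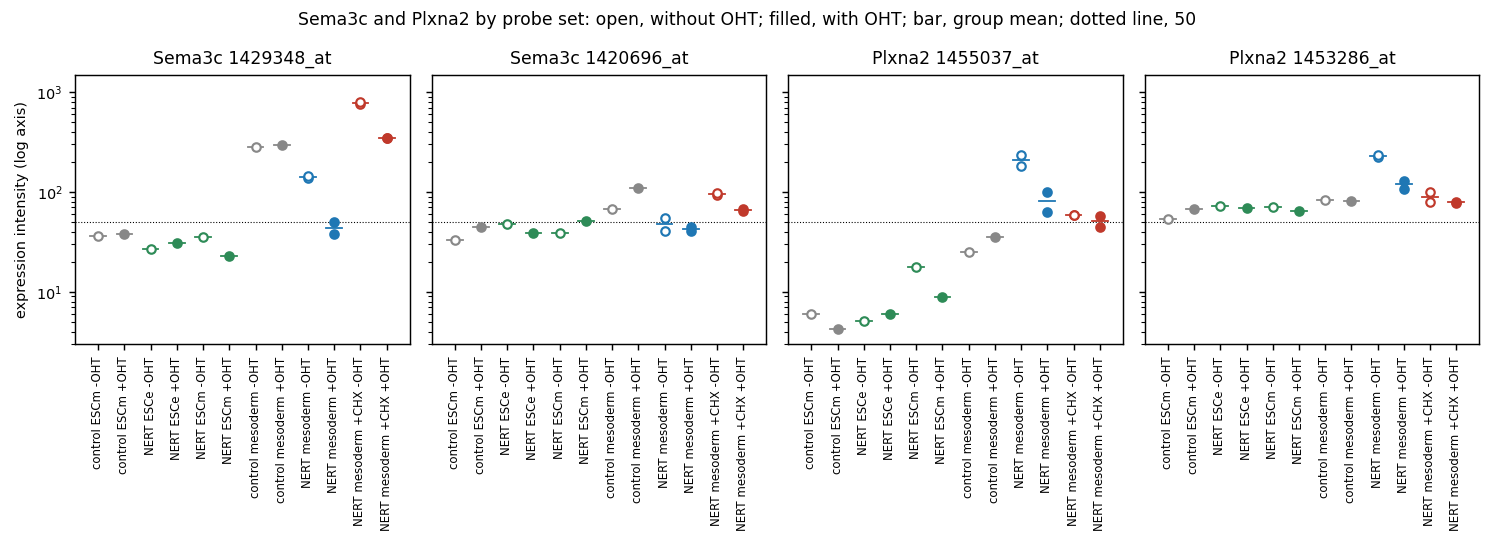
Expression intensity, on a log axis, of 2 Sema3c and 2 Plxna2 probe sets on all arrays, with open points without OHT, filled points with OHT, bars at group means and a dotted line at 50. The Sema3c probe sets agree in direction under CHX but differ in range, up to 793 and 109, and both Plxna2 probe sets are highest in uninduced NERT mesodermal cells.

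Of the other ligands, Sema6a read 103 and 86.8 without OHT and 50.1 and 60.3 with it, a log2 difference of -0.58 (SE 0.16) in groups that did not overlap. With CHX it read 79.0 and 75.4 without OHT and 76.4 and 87.0 with it. Its other 2 probe sets were dimmer and did not show the lower level, at 71.2 and 52.7 without OHT against 73.5 and 53.4 with it for the brighter of them. Sema3e, a ligand known from vessel patterning, read 574 and 497 without OHT and 534 and 390 with it, and these arrays overlapped. Sema3f, a ligand that prefers Nrp2, read 384 and 431 against 402 and 376, also overlapping. Sema6d read 38.6 and 42.0 without OHT, 44.1 and 47.2 with OHT, 32.2 and 31.2 with CHX and 60.9 and 57.6 with CHX and OHT. By its brightest probe set Sema6d was the one member whose OHT arrays lay above those without OHT in both settings, as 13.4% of tested probe sets did without CHX and 16.4% with it. By this probe set Sema6d was tested only because its mean with CHX and OHT, 59.2, reached 50. It thus entered through an OHT group where it was high, and nothing is read from these shares. Of its other 2 tested probe sets, 1 overlapped in both settings, and the other had a mean of 22.2 with OHT against 30.1 without it where CHX was absent. Sema3a read under 50 on all arrays with each of its 3 probe sets, so it has no usable level here.

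The coreceptors varied widely between replicates. Nrp2 read 339 and 410 without OHT and 187 and 357 with it, and Nrp1 read 89.8 and 140 against 52.8 and 129. In both genes the first OHT array was low and the second overlapped the uninduced arrays. Taken by replicate number, each OHT array of both genes read below the uninduced array of the same number. The second Nrp2 probe set overlapped, at 202 and 245 without OHT against 150 and 209 with it. A dimmer one did not overlap, at 161 and 196 against 98.4 and 142, lower with OHT as were 25.1% of all tested probe sets. The dimmest was higher with OHT, at 12.4 and 20.7 against 25.4 and 21.5. A dimmer Nrp1 probe set was mixed, at 54.6 and 95.5 without OHT against 67.0 and 84.7 with it. Another Nrp1 probe set overlapped, at 57.1 and 88.7 against 37.9 and 86.0. The dimmest Nrp1 probe set was higher with OHT, at 37.6 and 24.1 against 43.9 and 40.8. Plxna1, a type A plexin for class 3 ligands, read 831 and 797 without OHT and 740 and 828 with it. With CHX it read 490 and 442 without OHT, and 251 and 610 with OHT, the widest pair in the set.

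Sema3c and Plxna2, 2 of the 10 genes, met the study's fold and difference criteria, a 2-fold change and a difference over 50, in either OHT comparison of NERT mesodermal cells, Plxna2 through its second probe set. The study also required a detection call, which was not used here. Without CHX both were lower with OHT, as were 0.242% of all probe sets, and with CHX Sema3c alone of the 10 was lower, as were 0.0577%. Without CHX, of the 9 tested genes, those whose OHT arrays lay wholly below the uninduced ones were Sema3c, Sema6a and Plxna2, by their brightest probe sets. This was so for 25.1% of all tested probe sets. Sema3a lay that way too, but it failed the filter on low values and is outside that share. With CHX the OHT arrays of Sema3c alone lay wholly below, beside 13.7%. The median log2 difference over the 9 genes that passed the filter on low values was -0.33 without CHX and 0.02 with CHX, against -0.04 and -0.00 over all tested probe sets. The OHT response chose these genes, so nothing is read from these shares. The -0.33 rests on the OHT arrays, being -0.11 without the first and -0.67 without the second of them.

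**Figure D3:**
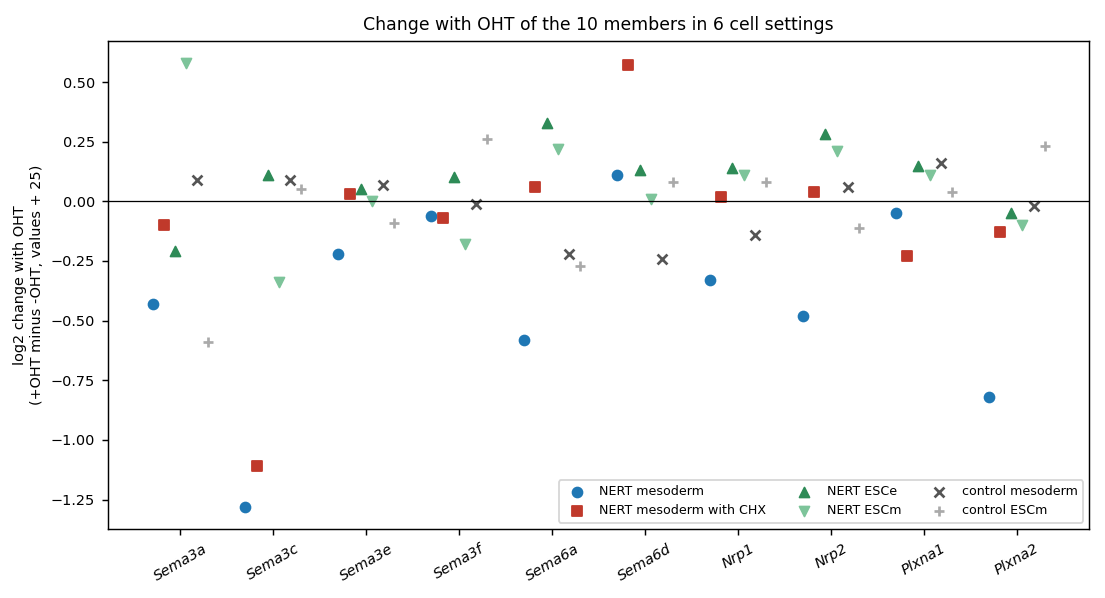
Log2 difference with OHT (with minus without, of intensity plus 25) for the 10 genes in 6 cell settings, 1 symbol per setting, each a difference of group means from 1 or 2 arrays a group. Sema3c stands at -1.28 and -1.11 in NERT mesodermal cells without and with CHX, and Plxna2 at -0.82 and -0.13.

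In control cells, which lack the inducible Notch1, none of the 9 tested genes passed limma's test for OHT over all probe sets. The test passed 0% of all 25847 probe sets in that comparison, where 220 had an unadjusted p under 0.05. The members' log2 differences by brightest probe sets, averaged over ESCm and mesodermal cells, ran from -0.25 for Sema6a to 0.13 for Sema3f. For Sema3c the mean difference was 0.07 (SE 0.16) by its brighter probe set. By the second it was 0.41 (SE 0.16), which did not pass either. Each control group was 1 array, so the spread in this test came from the NERT mesodermal pairs.

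Cycloheximide moved Sema3c more than any other member. Without OHT it rose 5.48-fold, from 141 ± 5.27 to 773 ± 27.9, a log2 change of 2.26 (SE 0.17, adjusted p = 1.82e-05, limma, 2 arrays a group). With OHT it rose 7.88-fold, from 43.8 ± 8.57 to 345 ± 1.17, a log2 change of 2.43 (SE 0.17, adjusted p = 9.69e-06). Its change ranked 137th and 148th from the top of 23971 probe sets. In both settings the arrays with CHX lay far above those without it by this brighter Sema3c probe set. The second Sema3c probe set rose less. It read 92.7 and 98.4 with CHX against 54.5 and 41.1 without OHT (log2 0.73, limma adjusted p = 0.00565). With OHT it read 64.3 and 67.9 against 40.4 and 44.2 (log2 0.44, adjusted p = 0.0477). Over the 2 Sema3c probe sets together the log2 changes were 1.50 and 1.43 and still passed (adjusted p = 4.84e-05 and 4.51e-05). These comparisons share their arrays with the OHT comparisons above. The baseline with OHT is the group whose Sema3c level brought the genes together. The size and p-value of the change with OHT therefore cannot be taken at face value.

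Of the receptors and coreceptors, Plxna2, Nrp2 and Plxna1 each fell with CHX in at least 1 setting, while Nrp1 did not pass in either. Plxna2 fell 2.56-fold with CHX in uninduced cells, from 229 ± 10.4 to 89.4 ± 14.3, a log2 change of -1.16 (SE 0.17, adjusted p = 0.000719). With OHT it fell 1.51-fold, from 119 ± 15.6 to 79.0 ± 1.75 (adjusted p = 0.0492), and this call was lost when any single NERT mesodermal array was left out, with adjusted p from 0.0516 to 0.191. Nrp2 fell 2.28-fold without OHT, from 375 ± 49.8 to 164 ± 15.7 (adjusted p = 0.00868). That call was lost without the second uninduced array (adjusted p = 0.0657) or the first array with CHX (adjusted p = 0.0712). With OHT, Nrp2 read 161 and 180 with CHX against 187 and 357 without (adjusted p = 0.109). Plxna1 fell 1.82-fold with CHX in induced cells, from 784 ± 62.5 to 430 ± 254 (adjusted p = 0.0309), and without the first array with CHX and OHT its log2 change was -0.35 in place of -0.95 (adjusted p = 0.142), while without the second it was -1.55. Leaving out either array with OHT alone also ended the Plxna1 call, at adjusted p = 0.0838 and 0.132. In uninduced cells Plxna1 read 490 and 442 with CHX against 831 and 797 (adjusted p = 0.0763). Its dimmer tested probe set fell in both settings, from 56.5 to 24.5 without OHT (adjusted p = 0.0141) and from 55.9 to 23.3 with it (adjusted p = 0.00838). Over its probe sets together, Nrp2 had a log2 change of -0.62 without OHT (adjusted p = 0.013).

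By their brightest probe sets the other ligands did not pass. Sema3e read 745 and 579 with CHX against 574 and 497 without it in uninduced cells (log2 0.29, adjusted p = 0.309), and 715 and 634 against 534 and 390 in induced cells (log2 0.54, adjusted p = 0.0588). Of its 3 dimmer probe sets, 1 did rise with CHX, from 228 to 379 in uninduced cells (adjusted p = 0.0351) and from 184 to 378 in induced cells (adjusted p = 0.00494). Sema3f, Sema6a, Sema6d and Nrp1 had log2 changes between -0.23 and 0.57. A dim probe set of Sema6d rose with CHX in induced cells, from 22.2 to 57.7 (log2 0.81, adjusted p = 0.00656). The less bright Sema3f probe set read 98.2 and 134 without CHX against 47.4 and 57.6 with it in uninduced cells and fell in both settings (adjusted p = 0.0366 and 0.0346). The probe sets of Sema3e, Sema6d and Sema3f thus gave different calls, and these genes have no single pattern with CHX.

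In uninduced cells, then, 3 of the 9 tested genes passed with CHX by their brightest probe sets (1 higher, 2 lower), where 32.8% of all probe sets passed, 21.1% higher and 11.7% lower. In induced cells 3 passed (1 higher, 2 lower), where 40.5% of all passed, 26.5% higher and 14% lower. Sema3c and, through that dimmer probe set, Sema3e met the fold and difference criteria for a higher level with CHX in induced cells, as did 7.11% of all probe sets. With 9 genes, nothing is read from the members' shares. Cell markers moved too. Of 11 early mesoderm markers, 10 fell with CHX in uninduced cells and their summed intensity was 1396 to 1604, against 4546 to 5446 without CHX, with Lhx1 alone under 25. In induced cells 9 fell, to 1290 to 1644 from 4831 to 4923. Of the 6 tested neuroectoderm markers 4 rose and 1, Pou3f1, fell in uninduced cells, with a summed intensity of 3069 to 3342 for the list of 7 from 2029 to 2601, and of its members Neurog2 alone had a group mean under 25 with CHX. In induced cells 5 of the 6 rose. Of the 10 pluripotency markers, none of them under 25, Klf4, Sox2 and Tbx3 rose in uninduced cells, and the sum went from 8415 to 9206 without CHX to 10776 to 12491 with it. In induced cells 5 rose and Pou5f1 fell, and the sum went from 8653 to 9080 to 13535 to 14620. All 3 tested endoderm markers, Foxa2, Gata6 and Sox17, rose in induced cells, where the sum of the 6 on the list went from 130 to 189 to 403 to 583, with Afp and Ttr under 25 with CHX. Their part in the changes of Sema3c and the receptors was not tested.

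**Figure D4:**
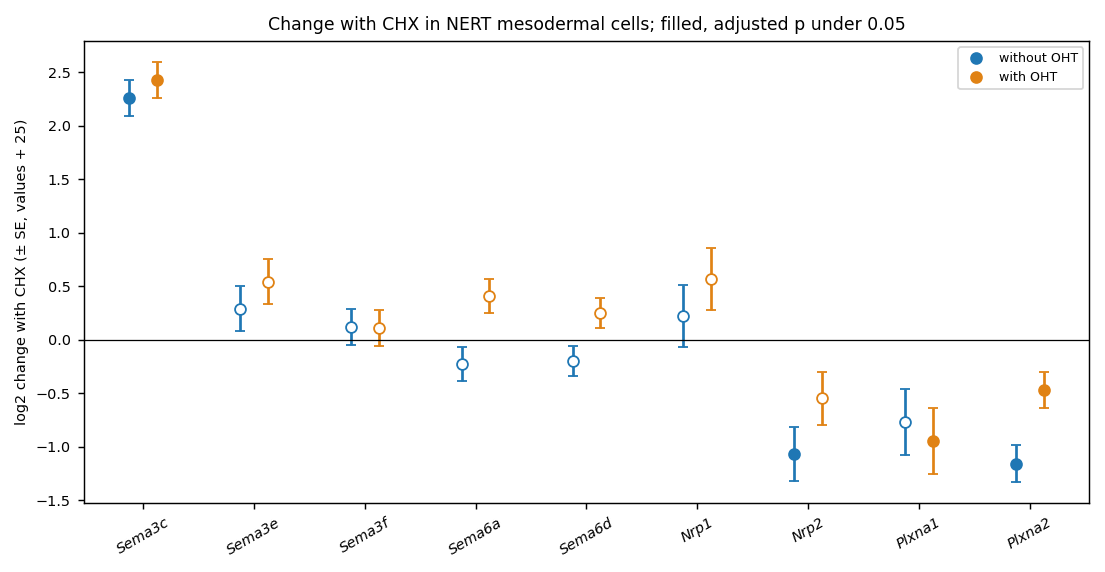
Log2 change with CHX (± SE, of intensity plus 25) in NERT mesodermal cells for the 9 tested genes, without OHT in blue and with OHT in orange, 2 arrays a group; filled points passed limma at an adjusted p under 0.05. Sema3c stands at 2.26 and 2.43, and Plxna2 and Nrp2 at -1.16 and -1.07 without OHT.

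Most of the tested genes were higher in NERT mesodermal cells than in NERT ESC. By their brightest probe sets, 6 of the 9 rose from uninduced ESC (1 ESCe and 1 ESCm array) to uninduced mesodermal cells and none fell, where 29.3% of all probe sets passed, 19.4% higher and 9.86% lower. The median log2 change of the 9 was 1.26, against 0.06 over all probe sets. Sema3c, Sema6a and Sema6d had ESC means under 50 and passed the filter on low values only through mesodermal groups. Sema3c and Sema6a thus entered the test on the side where they were high. Sema6d passed only through the group with CHX and OHT (mean 59.2), which is not in this comparison, and its means were under 50 on both sides. Without the filter 6 genes were called as well. Sema6a rose at least 3.80-fold, from 4.13 and 4.33 to 103 and 86.8 (log2 2.03, adjusted p = 9.14e-06). Another Sema6a probe set, the brighter in ESC, rose less, from 33.2 to 61.9 (log2 0.57, adjusted p = 0.0386). Sema3e rose 3.63-fold, from 152 and 143 to 574 and 497 (log2 1.70, adjusted p = 0.000172). Sema3c rose 4.55-fold, from 26.6 and 35.4 to 137 and 145 (log2 1.57, adjusted p = 5.83e-05). The second Sema3c probe set did not show the rise, at 47.6 and 38.9 in ESC against 54.5 and 41.1 (log2 0.09, adjusted p = 0.717). Over their probe sets together, Sema3c rose by 0.83 on the log2 scale (adjusted p = 0.000554) and Sema6a by 0.97 (adjusted p = 0.000357).

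Of the receptors and coreceptors, Plxna2 and Nrp2 rose as well. Plxna2 rose 3.21-fold, from 72.6 and 70.1 to 222 and 236 (log2 1.40, adjusted p = 0.00015), and Nrp2 rose 2.64-fold, from 148 and 136 to 339 and 410 (log2 1.26, adjusted p = 0.00357), or by 0.69 on the log2 scale over its probe sets together (adjusted p = 0.00717). Sema6d rose from a mean of 22.7 to one of 40.3 ± 2.39 (log2 0.45, adjusted p = 0.0335), a dim gene whose call was lost when either uninduced mesodermal array or either array with CHX and no OHT was left out (adjusted p from 0.0579 to 0.166). Its other 2 tested probe sets had log2 differences of -0.07 (adjusted p = 0.816) and 0.02 (adjusted p = 0.96). Plxna1, Sema3f and Nrp1 had log2 differences of 0.43, 0.21 and 0.15 and did not pass, though the less bright Sema3f probe set rose from 52.4 to 116 (adjusted p = 0.0378). Nrp1 read 104 and 94.3 in ESC and 89.8 and 140 in mesodermal cells, and these arrays overlapped.

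In the control line the comparison had 1 array a group. Sema3c rose 7.73-fold from ESCm to mesodermal cells, from 36.1 to 279 (log2 2.31, SE 0.23, adjusted p = 0.000701) by its brightest probe set and by 1.49 on the log2 scale over both (adjusted p = 0.00149), and Sema3e rose 4.94-fold, from 101 to 497 (log2 2.05, SE 0.29, adjusted p = 0.00427). These 2 of 9 genes passed, where 4.24% of all probe sets did and 2.7% rose. Nrp2 read 139 against 58.8 and did not pass (adjusted p = 0.185), and neither did Sema6a at 39.1 against 16.7 (adjusted p = 0.169) or Plxna2 at 83.9 against 53.7 (adjusted p = 0.362). Whether the 2 lines differed in the rise was tested as an interaction between line and cell type, over ESCm and mesodermal cells. No member passed, where 0.058% of all probe sets did and 1763 had an unadjusted p under 0.05. The largest member values were 1.41 for Sema6a (SE 0.29, adjusted p = 0.173), 0.95 for Plxna2 (SE 0.31, adjusted p = 0.542) and -0.86 for Sema3c (SE 0.30, adjusted p = 0.616).

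**Figure D5:**
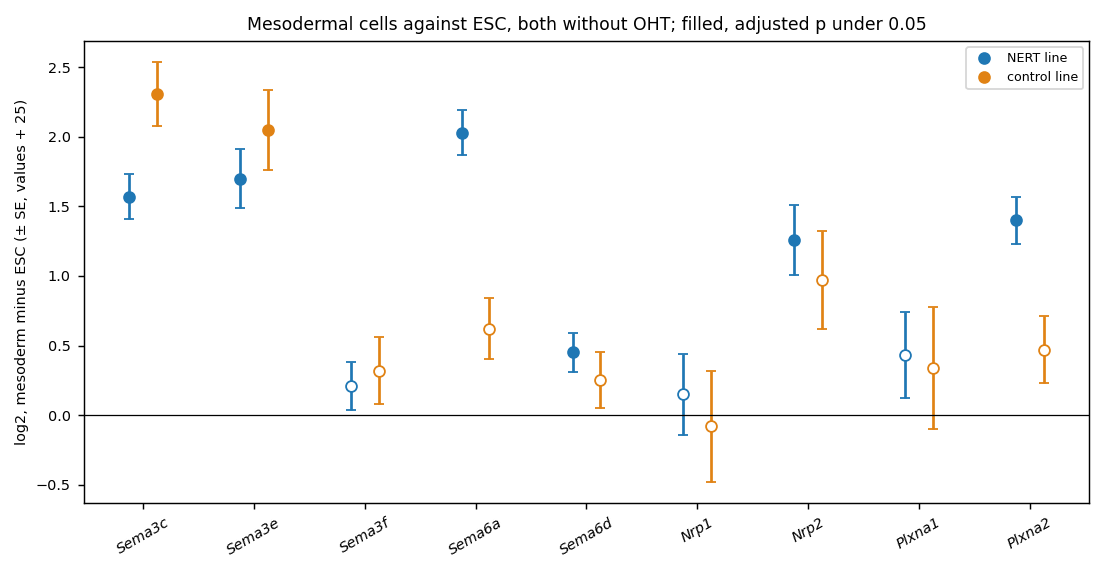
Log2 change from ESC to mesodermal cells (± SE, of intensity plus 25), both without OHT, for the 9 tested genes, blue for NERT and orange for control cells; filled points passed limma at an adjusted p under 0.05. Sema3c is at 1.57 and 2.31 and Sema3e at 1.70 and 2.05, and the other 7 passed in the NERT line alone or in neither.

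Uninduced NERT and control cells were set against each other directly as well. In mesodermal cells Plxna2 was higher in the NERT line, at 222 and 236 against 83.9 (log2 1.22, SE 0.20, adjusted p = 0.0182). It alone of the 9 genes passed, where 1.28% of all probe sets passed and 0.99% were higher. The call was lost without either of the 2 NERT arrays (adjusted p = 0.0875 and 0.0919). Nrp1 at 89.8 and 140 against 29.8, Nrp2 at 339 and 410 against 139, and Sema6a at 103 and 86.8 against 39.1 were more than 2-fold apart and did not pass, with adjusted p of 0.111, 0.0812 and 0.0511. These 3 and Plxna2 met the fold and difference criteria with their brightest probe sets, and Sema3f with its less bright one, as did 1.35% of all probe sets, and the other Nrp1 and Nrp2 probe sets above 50 lay the same way. Sema3c was lower in the NERT line, at 137 and 145 against 279, and did not pass (log2 -0.87, SE 0.20, adjusted p = 0.0691). The summed early mesoderm markers stood at 4546 to 5446 in these NERT arrays against 1684 in the control array, with Lhx1 under 25 in the latter alone, and the pluripotency markers at 8415 to 9206 against 15086. Their part in these differences was not tested.

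In ESCm without OHT no member passed between the lines, where 0.0193% of all probe sets did and 1008 had an unadjusted p under 0.05. Nrp1 read 94.3 in NERT and 33.1 in control cells (log2 1.04, SE 0.40), and Nrp2 read 136 and 58.8 (log2 0.94, SE 0.35), which met the fold and difference criteria as did 0.304% of all probe sets. Nrp1 read 52.8 to 146 on the 12 NERT arrays and 24.8 to 36.2 on the 4 control arrays, and these did not overlap, as in 1.02% of all tested probe sets where NERT was higher. This comparison over all arrays was made after the values were seen. Line and culture cannot be told apart there, since each control group was 1 array.

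The remaining semaphorins and plexins on the array, 14 and 7 genes of which 11 and 6 were tested, gave no OHT call in NERT mesodermal cells without CHX, where 0.893% of all probe sets passed, or with it, where 0.617% did. Their median OHT differences without CHX were -0.04 and 0.02, with ranges of -0.38 to 0.73 and -0.10 to 0.51. Sema7a, for one, read 124 without OHT and 222 with it. In NERT ESC the ranges for the semaphorins were -0.24 to 0.57 (ESCe) and -0.26 to 0.57 (ESCm). For the plexins they were -0.16 to 0.78 and -0.25 to 0.93. Sema4c, a membrane-bound ligand for plexin B2, rose from 69.3 in NERT ESC to 232 in mesodermal cells (log2 1.44, adjusted p = 0.000192) and fell to 108 with CHX (log2 -0.95, adjusted p = 0.00308). Sema7a, a membrane-anchored semaphorin, fell from 124 to 47.8 with CHX without OHT (log2 -1.03, adjusted p = 0.00244) and from 222 to 70.4 with OHT (log2 -1.39, adjusted p = 0.000303). Both thus moved with CHX as Plxna2 did and against Sema3c. Sema4b went the other way and passed as higher with CHX in both settings, like Sema3c. In uninduced mesodermal cells Sema7a was also higher in the NERT line, at 124 against 42.8 (adjusted p = 0.0434). Among the plexins, Plxnd1, the receptor of Sema3e, rose at least 3.21-fold from NERT ESC to mesodermal cells, from 21.5 to 80.2 (log2 1.18, adjusted p = 0.0111), and Plxnc1 rose from 29.2 to 88.8 with CHX in induced cells (log2 1.05, adjusted p = 0.00508). In all, 3 of the 11 other semaphorins rose and 1 fell from NERT ESC to mesodermal cells, beside 19.4% and 9.86% of all probe sets, and 1 rose and 2 fell with CHX in uninduced cells, beside 21.1% and 11.7%.

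Of 41 receptor partners and effectors, 38 were tested. From NERT ESC to mesodermal cells 16 rose and 2 fell, with a median of 0.44, beside 19.4% and 9.86% of all probe sets. Those with the largest changes were Rras, a GTPase inactivated by plexins, from 171 to 892 (log2 2.23, adjusted p = 5.19e-05), Farp1, an exchange factor that binds type A plexins, from 165 to 774 (log2 2.07, adjusted p = 0.000319), and Dpysl2, the collapsin response mediator CRMP2, from 454 to 1512 (log2 1.68, adjusted p = 7.67e-05). Nrcam, an adhesion molecule, rose from 12.2 to 82.6, Erbb2 from 30.6 to 115 and Met, a receptor kinase that plexins can engage, from 66.4 to 193. In the control line Rras, Farp1, Dpysl2 and Nrcam also rose, with log2 changes of 1.45, 1.61, 1.32 and 1.90. With CHX in uninduced cells 5 rose and 9 fell, beside 21.1% and 11.7%. Rnd1, a GTPase that binds plexins, rose from 37.5 to 141 (log2 1.43, adjusted p = 0.00339), Rnd3 rose from 499 to 1355 (log2 1.35, adjusted p = 0.00363), and Gipc1, which binds the tail of Nrp1, fell from 572 to 210 (log2 -1.35, adjusted p = 0.000929). Rnd1 was also the one effector to pass with OHT, at 465 against 141 with CHX (log2 1.52, SE 0.28). Without CHX it read 138 with OHT against 37.5 (log2 1.37, SE 0.28) and did not pass, and in NERT ESCe and ESCm it read 123 and 113 with OHT against 47.9 and 36.6.

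The genes most like Sema3c were sought by Pearson correlation of the log2 means of the 12 groups, over 12763 genes, as a description. The 12 points share cell lines and the 4 duplicated groups weigh no more than single arrays. The closest were Kctd12b (0.994), Kif21a, a kinesin (0.971), Cpeb1, an mRNA-binding protein (0.969), Id2, an inhibitor of basic helix-loop-helix factors (0.966), and Myo5a, a myosin (0.965). Id2 read 65.6 to 155 in the ESC groups, 1007 and 888 in control mesodermal cells, 817 and 263 in NERT mesodermal cells without and with OHT, and 6468 and 4242 with CHX. Its order over the classes was that of Sema3c. In both genes the group mean with OHT lay above the ESC range, for Sema3c at 43.8 against 22.9 to 38.2. Among the members, the value was 0.851 for Sema3e, 0.779 for Sema3f, 0.756 for Sema6a and 0.401 for Sema6d. It was 0.289 for Plxna2, 0.216 for Nrp2, 0.014 for Nrp1 and -0.255 for Plxna1. Sema3c and Sema3e both rose into mesodermal cells, while the Sema3e arrays with and without OHT overlapped.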

How the data were processed

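RNA of the 16 cultures was hybridised to Affymetrix Mouse Genome 430 2.0 arrays. The deposited values are expression intensities on a linear scale, which the authors computed with the model-based method of dChip after invariant-set normalization to 1 array, the control mesodermal cells with OHT. No detection calls were used here. Of 45037 probe sets, 34945 had 1 gene symbol in the platform annotation, 932 had more than 1 and 9160 had none. The gene IDs of 34741 matched the RefSeq gene table.

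The intensities were taken as log2(value + 25), and a probe set was tested where the mean of any group reached 50, with limma 3.58.1 in R 4.3.3 (lmFit, eBayes with trend, two-sided), with Benjamini-Hochberg adjustment over all probe sets tested and a threshold of 0.05. CHX and OHT in NERT mesodermal cells were fitted on 8 arrays (23971 probe sets), and all other comparisons on 16 arrays with 12 groups (25847 probe sets). Both fits had 4 residual degrees of freedom, all from the 4 pairs of NERT mesodermal arrays, so a single array is assumed to vary like those. Nothing in the labels says that the pairs came from separate cultures, and the spread behind each p-value may therefore be technical. Precision is limited by how few arrays there were. No batch or scan information was used. The scripts were tested on simulated data with known changes. Other software was Python 3.11.15 with pandas 2.3.3, numpy 2.4.6 and matplotlib 3.10.9.

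The members and lists were chosen with earlier results of these data known. Genes were named by rule: all 10 members, other family genes and effectors past the threshold with a log2 change of at least 1 (at most 6 a list and comparison), the 5 genes most like Sema3c, Hes5, Nrarp and the markers. Genes named outside it (Sema4b, and Sema4c, Nrcam and Rnd1 in further comparisons) were chosen after their values were seen. Sequences of promoters came from RefSeq, GRCm38.p6. Promoter windows of the other 3 members were not analysed here. Lists for endoderm (6 genes), endothelium and blood (8) and neural crest and fibroblasts (6) were measured too. In uninduced NERT mesodermal cells their summed intensities were 256 to 310, 435 to 456 and 564 to 661, and with CHX 377 to 458, 431 to 534 and 1011 to 1417.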

Additional observations from a re-analysis of the deposited data

Results flagged for a closer look

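By its brightest probe set alone, Sema6a had opposite signs with OHT in the 2 cell types of the NERT line. The log2 difference in mesodermal cells was -0.58, with both induced arrays below both uninduced ones, while in ESC the single arrays with OHT read 11.6 and 9.27 against 4.13 and 4.33 without. The difference between the cell types was not tested, the ESC intensities of this probe set all lie under 25, and their order is at the bottom of the scale. The other Sema6a probe sets did not show these signs. The one brighter in ESC had log2 differences of 0.02 in mesodermal cells, -0.42 in ESCe and -0.28 in ESCm. The dimmest was higher with OHT in mesodermal cells (log2 0.31).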

How the results depend on the processing

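Alternatives were other pseudocounts (5 and 50), no filter or a group mean of 100, quantile normalization, the mean over a gene's probe sets, eBayes without trend, the 16-array fit for CHX, the study's fold and difference criteria, a replicate block and leaving out each NERT mesodermal array. No called value of a single gene and neither Sema3c OHT difference changed sign. The members' median OHT difference with CHX, 0.02, did, at -0.07 with a group mean of 100, -0.03 without the filter and -0.05 to -0.01 without each of the 4 arrays with CHX. The Sema3c OHT difference without CHX was -1.59 and -1.03 with pseudocounts of 5 and 50 and -0.69 over its 2 probe sets, and -1.41 to -1.15 with an array left out. With CHX it was -1.15, -1.06 and -0.76, and -1.15 to -1.07. The members' median was -0.11 over probe sets without CHX and -0.67 to -0.11 with an array left out (with CHX -0.05 to 0.02). With an array left out, members called were 2 to 4 for CHX without OHT, 1 to 3 for CHX with OHT, 5 to 7 for NERT mesodermal cells against ESC, and 0 to 3 for NERT against control mesodermal cells (0 without either uninduced NERT array, 3 without either array with OHT alone). For CHX with OHT the count was 1 without the filter and 1 by the study's criteria with brightest probe sets. For the lines in mesodermal cells it was 2 with a pseudocount of 50, 2 after quantile normalization and 4 by the study's criteria, and in ESCm it was 2 by those criteria, which gave no value for the interaction. In all, 164 of the other summary values stayed close to the main ones, and of the values of single genes 211 kept their call and 23 lost it. The cause was not tested, except that leaving out an array leaves fewer samples.

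Replicate numbers in the labels were checked as a pairing. Differences between replicates 1 and 2 correlated by 0.513 between NERT mesodermal cells without and with OHT. For the other pairs of groups the values were 0.207, 0.209, 0.007, 0.114 and 0.072, so the numbers did not pair the samples throughout. With the replicate block, 5 members were called for CHX with OHT (2 higher, 3 lower) in place of 3, and 4 in place of 3 for CHX without OHT. The block ended none of the calls of single members.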
